A study of Mus musculus with 60 samples.

Results

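The 37 genes that mouse mitochondria carry on their own DNA were examined in 3 tissues of mice kept on different diets with or without voluntary wheel running. The members were the rows of the deposited table whose symbol starts with mt-, 37 of 54352 genes. They comprise 13 protein genes, 2 ribosomal RNA (rRNA) genes and 22 transfer RNA (tRNA) genes, and the 3 classes are described apart.

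Bulk RNA of 20 C57BL/6JN mice was profiled by 3′ digital gene expression, a method that primes on poly(A) and counts a fragment near the 3′ end of each transcript. Each mouse gave subcutaneous white fat (scWAT), visceral white fat (vWAT) and triceps muscle, so 60 libraries fall into 12 groups of 5. The chow sedentary group ate a diet with 10% of its energy from fat for 6 weeks and had no running period. The chow trained group ate the same diet and had voluntary wheel running for the last 3 weeks. The HFD sedentary group ate a high-fat diet (HFD) with 60% of energy from fat for 6 weeks, and the HFD trained group ate that diet and ran for the last 3 weeks. All mice were 12 weeks old and were fasted for 6 hours before collection. Wheels were locked for the final 24 hours, so the libraries of trained mice show tissue at rest after training and not during a bout. Running was voluntary, and the labels give no running distances. All samples are whole tissue, in which fewer cells of a type and less RNA per cell cannot be told apart.

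Mitochondrial DNA is a small circle transcribed from both strands into long RNAs, which are cut, mostly at the tRNAs that lie between the other genes, into separate mRNAs, rRNAs and tRNAs. Its protein genes encode core subunits of complexes I, III and IV of the respiratory chain and of ATP synthase; nuclear genes encode the remaining subunits of these complexes and all of complex II. The 2 rRNAs form the core of the mitochondrial ribosome, which translates only the mitochondrial mRNAs. Skeletal muscle is rich in mitochondria and its mitochondrial content is known to rise with endurance training, whereas white fat cells hold few mitochondria around a large lipid droplet.

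Several members cannot be told apart cleanly by short reads, because the nuclear genome holds near copies of mitochondrial DNA. Of 21 nuclear transcripts that align to a member over at least 80% of their length, only Gm29216 and Gm28438 had 1000 counts or more; 6 had none and the other 13 had 3 to 599. Of the 6 without counts 5 are identical over the aligned bases to mt-Atp6, mt-Co2, mt-Co3, mt-Nd4 or mt-Nd4l, so reads from these stretches cannot be told apart and a count of 0 shows only how reads were assigned. Gm29216, on mm10 chromosome 1, matches the last part of mt-Co1, the catalytic subunit of complex IV. It carried 679470 counts over all libraries against 96704 for mt-Co1 itself. Gm29216 held 92.7% of the counts of the pair in scWAT, 92.5% in vWAT and 78.4% in triceps. Gm28438 matches mt-Nd3, a complex I subunit, and carried 12182 counts against 71275, or 14.6% of that pair. The stretches around the single aligned difference of each pair are shown because they are the only bases within these alignments by which a read can be assigned. Sequences are on the mm10 assembly as annotated in GENCODE vM21, read 5′ to 3′ on the gene's strand, and the capital marks the base that differs.
mt-Co1, chrM:6390-6423, plus strand: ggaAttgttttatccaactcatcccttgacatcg
Gm29216, chr1:24616155-24616188, minus strand: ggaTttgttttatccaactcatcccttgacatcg
mt-Nd3, chrM:9459-9491, plus strand: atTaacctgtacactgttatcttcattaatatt
Gm28438, chr1:24613087-24613119, minus strand: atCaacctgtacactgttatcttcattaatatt
Counted from 1 at the start of each member, the differences are A1066T for Gm29216 and T3C for Gm28438. In the first pair 479 bases lie between that base and the annotated end of mt-Co1 with no further difference, and a 3′ method reads near this end. The last 60 bases of both genes as annotated are the same and are given once.
mt-Co1 chrM:6813-6872 plus strand, and Gm29216 chr1:24615706-24615765 minus strand: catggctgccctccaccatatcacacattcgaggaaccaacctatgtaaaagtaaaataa

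Members also overlap each other on the mitochondrial circle. The mRNAs of mt-Atp8 with mt-Atp6, both parts of ATP synthase, and of mt-Nd4l with mt-Nd4, both parts of complex I, are known to carry the 2 reading frames of each pair on 1 molecule. The overlaps are shown because a read inside them belongs to both members; capitals mark the 43 bases shared by the first pair and the 7 shared by the second.
mt-Atp8 into mt-Atp6, chrM:7907-7989, plus strand: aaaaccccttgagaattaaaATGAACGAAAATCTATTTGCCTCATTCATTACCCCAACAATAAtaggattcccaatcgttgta
mt-Nd4l into mt-Nd4, chrM:10147-10193, plus strand: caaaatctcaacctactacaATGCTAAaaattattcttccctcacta
The upstream gene of each pair had the lower count: mt-Atp8 had 9033 counts in all libraries against 974333 for mt-Atp6, and mt-Nd4l had 22205 against 618241 for mt-Nd4. On opposite strands, mt-Nd5 and mt-Nd6 overlap by 14 bases and mt-Co1 and mt-Ts1 by 3. The sources used here do not say whether the counting used strand, so reads of mt-Nd6 and mt-Ts1 cannot be separated from RNA antisense to them.

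Libraries held 505336 to 744581 counts, with a median of 666522.5. Adipocyte markers made up 2.76% to 5.91% of counts in the fat libraries and at most 0.0935% in triceps, where skeletal muscle markers made up 7.92% to 16.8%. Muscle markers reached 8.74% in scWAT, and 6 scWAT libraries had over 1% (1 chow sedentary, 3 chow trained, 2 HFD sedentary). Another 6 scWAT libraries, all on chow, carried over 100 counts each of B cell markers and of lymph node stroma markers. Of the 3 stroma markers listed, Ccl19 and Ccl21a were at 0 in every tissue, so the stroma reads rest on a single gene. Liver marker counts in vWAT reached 3728 in HFD sedentary and 1775 in HFD trained libraries, against 457 and 377 on chow. Skeletal muscle marker counts there reached 1811 and 2464 on HFD, against 157 and 206 on chow, with lower medians on HFD (49 and 31, against 109 and 73). The part of either was not tested. In vWAT 5 chow libraries carried heart reads and 3 HFD libraries intestinal reads, and in triceps 5 chow libraries carried intestinal reads and 3 HFD libraries brain reads. These 5 and 3 libraries have consecutive library codes in the column headers, where codes run without a break within each tissue. Block boundaries were set here, in steps of 12 codes after the first 5 vWAT libraries, and no label marks them. In these steps scWAT split into blocks of 9 and 11 libraries. Per the labels, cDNA of 12 wells was pooled, but no label says which libraries formed a pool.

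The 13 protein genes gave a large part of all counts, and the size of that part differed by tissue, diet and running (plot of shares by library). In scWAT their share in the 5 chow sedentary libraries was 13.9, 12.4, 17.7, 15.5 and 14.4% of counts. In HFD sedentary scWAT it was 8.84, 7.43, 8.36, 9.76 and 6.57%. Every HFD library lay below every chow library, and the ratio of the group means was 0.555. Running mice showed the same order with less distance: 16.05, 19.0, 13.8, 13.3 and 13.3% on chow and 10.2, 13.3, 11.01, 9.12 and 7.69% on HFD, where 1 HFD library reached the chow range. With the counts of the nuclear copies added, these trained groups did not overlap (means 17.55% on chow, 12.15% on HFD).

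In vWAT the share was lower throughout. It was 9.39, 8.02, 10.3, 9.78 and 9.70% in chow sedentary libraries and 5.60, 6.02, 5.84, 5.90 and 4.53% in HFD sedentary libraries. It was 9.88, 10.3, 11.5, 11.3 and 10.4% in chow trained libraries and 7.95, 7.85, 7.66, 8.26 and 7.15% in HFD trained libraries. The HFD groups lay below the chow groups in sedentary and in trained mice, and HFD trained lay above HFD sedentary in all 5 libraries, with a ratio of means of 1.39.

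Triceps had the highest share, and there the trained groups had the higher means. The values were 23.1, 21.0, 24.1, 21.9 and 21.5% in chow sedentary, and 25.2, 24.1, 30.2, 27.5 and 24.3% in chow trained libraries. They were 19.4, 19.1, 19.9, 25.4 and 26.7% in HFD sedentary, and 28.0, 31.3, 29.9, 29.2 and 28.6% in HFD trained libraries. All HFD trained libraries exceeded all HFD sedentary ones (ratio of means 1.33), while the 2 chow groups met at 24.1% (ratio 1.17). With the counts of the nuclear copies added, the chow groups did not overlap (means 27.96% trained, 23.94% sedentary). The 2 highest HFD sedentary libraries lay apart from the other 3.

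**Figure D1:**
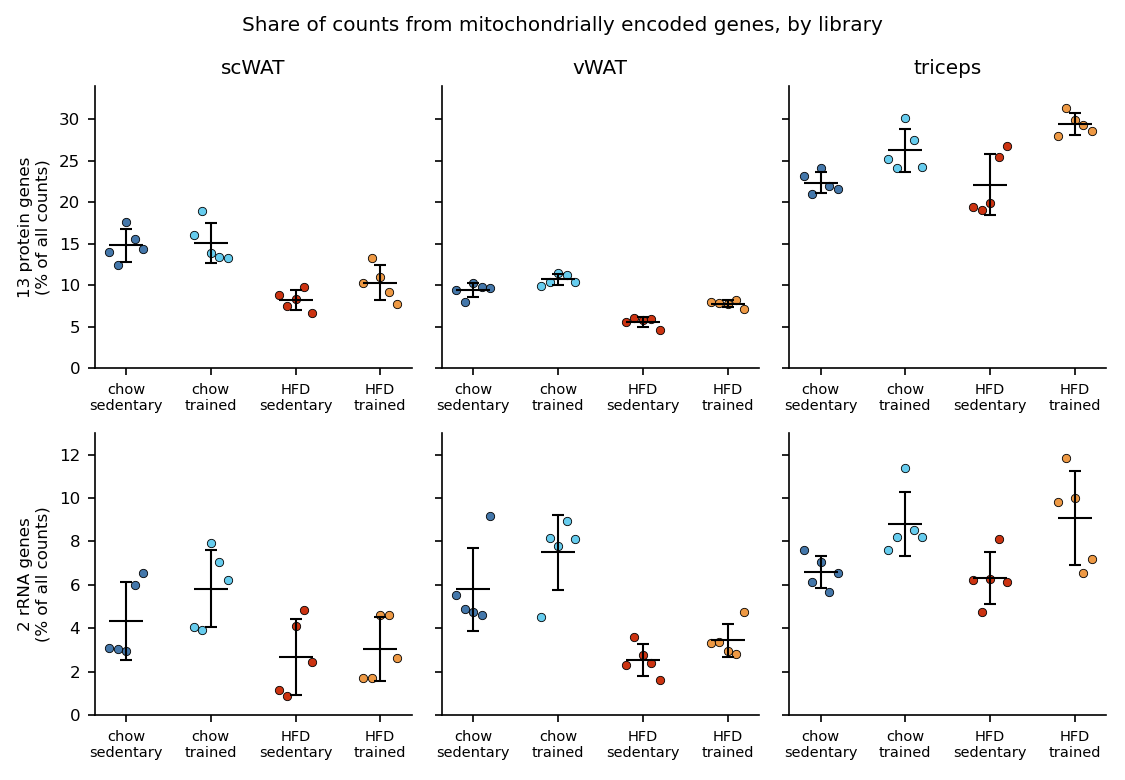
Share of all counts (%) from the 13 protein genes (top) and the 2 rRNA genes (bottom) in each library, by tissue and group; points are libraries, horizontal bars group means and whiskers 1 SD (n = 5). In both fat depots the protein-gene share of HFD sedentary libraries lies below that of chow sedentary libraries, and in triceps the HFD trained libraries (28.0 to 31.3%) lie above the HFD sedentary libraries (19.1 to 26.7%).

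Single genes were tested with edgeR's quasi-likelihood test within each tissue, on counts scaled by TMM, with p-values adjusted by Benjamini-Hochberg over all genes tested; a gene was called below 0.05. Log2 differences are HFD minus chow or trained minus sedentary. In each tissue 16 members passed the filter on low counts: all 13 protein genes, both rRNA genes and mt-Ts1. A gene's level is given in CPM, its counts scaled to a common library total.

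In sedentary scWAT, RNA for subunits of all 3 mitochondrially encoded respiratory complexes and of ATP synthase was lower on HFD: 10 of 16 members were called lower and none higher, against 2.80% of all genes called lower. The median difference of the 13 protein genes was -0.96, and that of all genes -0.05. The lowest adjusted p belonged to mt-Atp6, the membrane subunit of ATP synthase through which protons pass. It stood at 25904, 24237, 36646, 26194 and 25886 CPM on chow and at 16588, 13875, 13667, 14476 and 10892 CPM on HFD. The groups did not overlap, and the log2 difference was -1.19 (SE 0.21, adjusted p = 0.00117).

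Complex IV fell as a set of 3. Its subunit mt-Co3 stood at 29435, 27999, 37396, 31604 and 29218 CPM on chow and at 17626, 14825, 16758, 20704 and 12575 CPM on HFD, again without overlap (-1.10, SE 0.22, adjusted p = 0.00283). The copper-binding subunit mt-Co2 fell by 1.10 on the log2 scale (adjusted p = 0.00147) and mt-Co1 fell by 0.77 (0.0128). The only mitochondrial gene of complex III, mt-Cytb, fell by 1.11 (0.00464).

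Of complex I, mt-Nd2 (-0.94, adjusted p = 0.00848), mt-Nd3 (-1.04, 0.0248), mt-Nd4 (-0.90, 0.00963) and mt-Nd6 (-1.001, 0.0106) fell. For mt-Nd1 (-0.70, 0.0527), mt-Nd4l (-0.68, 0.462) and mt-Nd5 (-0.53, 0.236) the test was not passed, nor for mt-Atp8 (-0.96, 0.0703). These misses depend on the fit: with the block of library codes as a factor all 16 members were called, and 14 in the trained mice described next. Fitted alone, with fewer libraries, the block of 9 gave no call and the block of 11 fewer calls than the fit without blocks. The 6 genes mt-Atp6, mt-Co2, mt-Co3, mt-Cytb, mt-Nd2 and mt-Nd4 were called whichever library was left out. Without HFD sedentary replicate 5 only 6 members were called, the calls of mt-Co1 (adjusted p = 0.0678), mt-Nd3 (0.0881), mt-Nd6 (0.0508) and mt-Ts1 (0.0792) being lost.

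Counts of brown or beige adipocyte markers differed between these groups too. The summed counts of the 7 markers, all detected in scWAT, ranged from 834 to 2614 on chow and only reached 172 to 731 on HFD in sedentary mice. This sum is not particular to beige fat, since it was 1520 to 2923 in triceps. The 15 skeletal muscle markers made up 0.0158% to 2.60% of counts on chow and 0.0315% to 6.38% on HFD. Muscle and beige fat are rich in mitochondria. Without the libraries over 1% muscle markers 15 members were called, with mt-Atp6 at -1.28 (adjusted p = 0.0123). The part of the beige markers was not tested. Without the 6 libraries with lymph node reads 6 members were called, while the difference in mt-Atp6 was -1.44 (adjusted p = 0.00163).

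In running mice the diet difference in scWAT had the same sign for all 16 members, and 8 protein genes were called lower, against 2.01% of all genes. Its lowest adjusted p again belonged to mt-Atp6, at 33196, 37293, 25004, 25617 and 25479 CPM on chow and 19045, 23898, 17844, 15707 and 13249 CPM on HFD (-0.97, SE 0.21, adjusted p = 0.00788), with no overlap. mt-Co3 stood at 32498, 40666, 27476, 27489 and 27724 CPM against 20644, 27094, 23068, 17625 and 14863 CPM, also without overlap (-0.86, 0.0208). The other genes called were mt-Co2 (-0.84, 0.0150), mt-Nd2 (-0.84, 0.0229), mt-Nd3 (-1.02, 0.0335), mt-Co1 (-0.68, 0.0339), mt-Nd4 (-0.76, 0.0345) and mt-Cytb (-0.78, 0.0499). These calls were fragile, apart from that of mt-Atp6, which held without each library in turn. Without HFD trained replicate 1 or 5 a single member was called, without replicate 4 of that group 3, and without chow trained replicate 2, 3 or 4, 4 each. Without the libraries over 1% muscle markers, which took 3 of the 5 chow trained libraries, none was called, although the difference in mt-Atp6 was then -1.19 (adjusted p = 0.05896). Brown or beige marker counts were 867 to 2427 in chow trained and 313 to 1629 in HFD trained libraries, and their part was not tested.

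Running alone left no member of scWAT called by edgeR on either diet, none had an unadjusted p below 0.05, and DESeq2 called none. Of all genes 0% were called on chow (377 had an unadjusted p below 0.05) and 0.707% were called higher on HFD. Differences ranged from 0.02 to 0.63 on chow and from -0.10 to 0.46 on HFD, where mt-Cytb was highest (0.46, SE 0.23, adjusted p = 0.470). The interaction of diet and running also gave 0 calls, 0 unadjusted p below 0.05 and 0 calls by DESeq2 among the members.

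The same diet contrast in vWAT was measured with less spread. In sedentary mice 15 of the 16 members were called lower, all but mt-Ts1, against 4.15% of all genes, and the protein-gene median was -1.04 beside -0.01 for all genes. mt-Co3, with the lowest adjusted p, stood at 17384, 14999, 18482, 18596 and 18910 CPM on chow and at 9803, 10463, 10371, 10095 and 8749 CPM on HFD. The 2 groups did not overlap, and the difference was -1.04 (SE 0.11, adjusted p = 1.3e-07).

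Subunits of complex I spanned the widest range there. mt-Nd4l fell by 1.39 (SE 0.17), mt-Nd3 by 1.22, mt-Nd5 by 1.04, mt-Nd4 by 0.94, mt-Nd6 by 0.89, mt-Nd2 by 0.73 and mt-Nd1 by 0.56 (SE 0.12), with adjusted p from 1.3e-07 to 0.00342. Those of complex IV and ATP synthase lay between: mt-Co1 and mt-Atp8 fell by 1.16, mt-Atp6 by 1.09 and mt-Co2 by 0.94. mt-Cytb fell by 1.02 (adjusted p = 1.06e-05). All of these calls held without each library in turn. Summed macrophage marker counts (8 genes) were 435 to 581 on chow and 793 to 3727 on HFD in these mice. Brown or beige marker counts (7 genes, Ucp1 at 0) were 69 to 329 and 45 to 118, and in trained mice 96 to 402 and 40 to 138. The part of either in the diet results was not tested.

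Trained vWAT also had 15 members called lower on HFD, against 1.42% of all genes, but not the same 15: mt-Ts1 was called and mt-Cytb was not. mt-Nd4l had the lowest adjusted p, at 299, 464, 504, 539 and 587 CPM on chow and 225, 182, 228, 192 and 279 CPM on HFD (-1.29, SE 0.17, adjusted p = 7.99e-06). The chow values all lay above the HFD values. mt-Co3 was at 17723, 18999, 22842, 21429 and 20419 CPM on chow and at 13498, 13923, 14245, 14050 and 13302 CPM on HFD (-0.73, SE 0.11, adjusted p = 3.32e-05), also without overlap. mt-Co1 (-1.14), mt-Nd6 (-1.03), mt-Nd5 (-1.02), mt-Co2 (-0.86), mt-Atp6 (-0.83), mt-Atp8 (-0.81), mt-Nd3 (-0.76), mt-Nd2 (-0.75), mt-Nd4 (-0.69) and mt-Nd1 (-0.41, adjusted p = 0.0443) fell as well. The calls of mt-Nd1 and mt-Atp8 were the ones lost when single libraries were left out, mt-Nd1 in 13 of 20 fits (adjusted p up to 0.125) and mt-Atp8 without HFD trained replicate 2 (0.0634) or chow trained replicate 5 (0.0735).

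The gene that stood apart in vWAT was mt-Cytb. It stood at 24455, 18854, 27900, 28338 and 27507 CPM in chow sedentary and 25352, 24256, 27639, 26368 and 24823 CPM in chow trained libraries. On HFD it was 15662, 16268, 14183, 15941 and 10000 CPM in sedentary and 24154, 26632, 22341, 24407 and 16127 CPM in trained libraries. Of the 5 HFD trained libraries 4 lay within the chow sedentary range, and the lowest overlapped the HFD sedentary group. Its diet difference was -1.02 in sedentary and -0.35 (SE 0.14, adjusted p = 0.226) in trained mice, but the interaction that tests the change between them was not called (0.67, SE 0.20, adjusted p = 0.300).

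Running on HFD raised 7 protein genes of vWAT, against 1.22% of all genes called higher. This comparison shares the HFD sedentary libraries with the diet comparison in sedentary mice, so the 2 are not independent. Macrophage marker counts were 793 to 3727 in sedentary and 462 to 1003 in trained mice on HFD, and their part was not tested. mt-Cytb (0.72, SE 0.14, adjusted p = 0.00302) and mt-Co3 (0.54, SE 0.11, adjusted p = 0.00303) led, with the values above, in which mt-Co3 did not overlap between the groups. mt-Nd3 (0.65, 0.00318), mt-Atp6 (0.52, 0.00924), mt-Nd4 (0.51, 0.00965), mt-Co2 (0.45, 0.0246) and mt-Nd2 (0.39, 0.0425) rose too. The first 5 held without each library in turn. The calls of mt-Co2 and mt-Nd2 did not, for example at adjusted p = 0.122 and 0.125 without HFD sedentary replicate 5. Within the block of 12 libraries 3 members were called. Without the 3 libraries with intestinal reads mt-Cytb alone was called (0.68, adjusted p = 0.0121), and mt-Co3 was at 0.48 (0.0822).

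On chow, running gave no called member in vWAT with edgeR, although 10 had an unadjusted p below 0.05 and DESeq2 called 1; 0.272% of all genes were called higher. The largest difference, in mt-Ts1, was 1.01 (SE 0.29, adjusted p = 0.114), and those of the protein genes ran from 0.05 for mt-Cytb to 0.66 for mt-Nd6 (0.103). No interaction of diet and running was called among the members in vWAT, against 0.0143% of all genes in either direction; 3 had an unadjusted p below 0.05 and DESeq2 called 0.

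Triceps muscle showed no diet call. In sedentary mice the 16 differences ranged from -0.35 (mt-Ts1) to 0.11 (mt-Co1), and in trained mice from -0.23 (mt-Ts1) to 0.26 (mt-Cytb), none with an unadjusted p below 0.05 and 0 called by DESeq2. Of all genes 0% were called in both, with 201 and 306 at an unadjusted p below 0.05. A p that misses the threshold does not show equal levels, but the SEs of the protein genes, 0.11 to 0.17, are small beside the differences near -1 in fat.

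With running on HFD, 9 of the 16 triceps members were called higher, 8 protein genes and mt-Rnr2, against 3.49% of all genes, with a protein-gene median of 0.46 beside -0.01 for all genes. mt-Cytb led, at 35977, 40768, 35028, 53485 and 55487 CPM in sedentary and 66926, 83906, 70048, 71644 and 62646 CPM in trained libraries. The trained libraries lay above all sedentary ones, and the difference was 0.87 (SE 0.15, adjusted p = 0.000445). mt-Co3 was at 40131, 38511, 40802, 50228 and 58406 CPM and at 55405, 60683, 63453, 59024 and 60468 CPM, where the highest sedentary library overlapped the trained group (0.57, SE 0.13, adjusted p = 0.00668).

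ATP synthase's mt-Atp6 rose by 0.68 (SE 0.13, adjusted p = 0.000919), and mt-Nd4 of complex I by 0.55 (0.00546). These 2, mt-Cytb and mt-Co3 were called whichever library was left out. mt-Nd6 (0.58, 0.0139), mt-Co1 (0.52, 0.0113), mt-Co2 (0.46, 0.0154) and mt-Nd1 (0.39, 0.0448) also rose, with calls that single libraries decided: 4 members remained called without HFD trained replicate 2 and 5 without HFD sedentary replicate 1. mt-Atp8 (0.27), mt-Nd5 (0.28), mt-Nd3 (0.31), mt-Nd4l (0.32) and mt-Nd2 (0.36, adjusted p = 0.0524) were not called. Without the 3 HFD libraries with brain reads 13 members were called, and mt-Cytb was at 1.08 (adjusted p = 0.000151). The 15 skeletal muscle markers made up 11.8% to 16.8% of counts in HFD sedentary and 7.92% to 11.8% in HFD trained triceps, and their part in the result was not tested.

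On chow a single member was called higher in running triceps, against 0.431% of all genes, while 8 of the 16 had an unadjusted p below 0.05 and DESeq2 called 5. This was mt-Co1, at 3086, 3676, 4025, 3545 and 2928 CPM in sedentary and 3999, 3867, 5199, 4916 and 4691 CPM in trained libraries. The highest sedentary library overlapped the lowest 2 trained ones, and the difference was 0.53 (SE 0.13, adjusted p = 0.0336). Its call was lost without chow sedentary replicate 1 (adjusted p = 0.104), 2 (0.0569), 4 (0.0805) or 5 (0.132), without chow trained replicate 3 (0.146) or 4 (0.0805), and without HFD trained replicate 1 (0.0504). It was also lost with total-count scaling (0.0951) and with the counts of Gm29216 added (0.29, adjusted p = 0.550). mt-Co3, at 49810, 43685, 49291, 46955 and 44008 CPM in sedentary and 49139, 48320, 65539, 56536 and 50568 CPM in trained libraries, overlapped and was not called (0.35, adjusted p = 0.241). The interaction of diet and running gave 0 calls in triceps among members and all genes alike, with 0 members at an unadjusted p below 0.05 and 0 called by DESeq2.

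**Figure D2:**
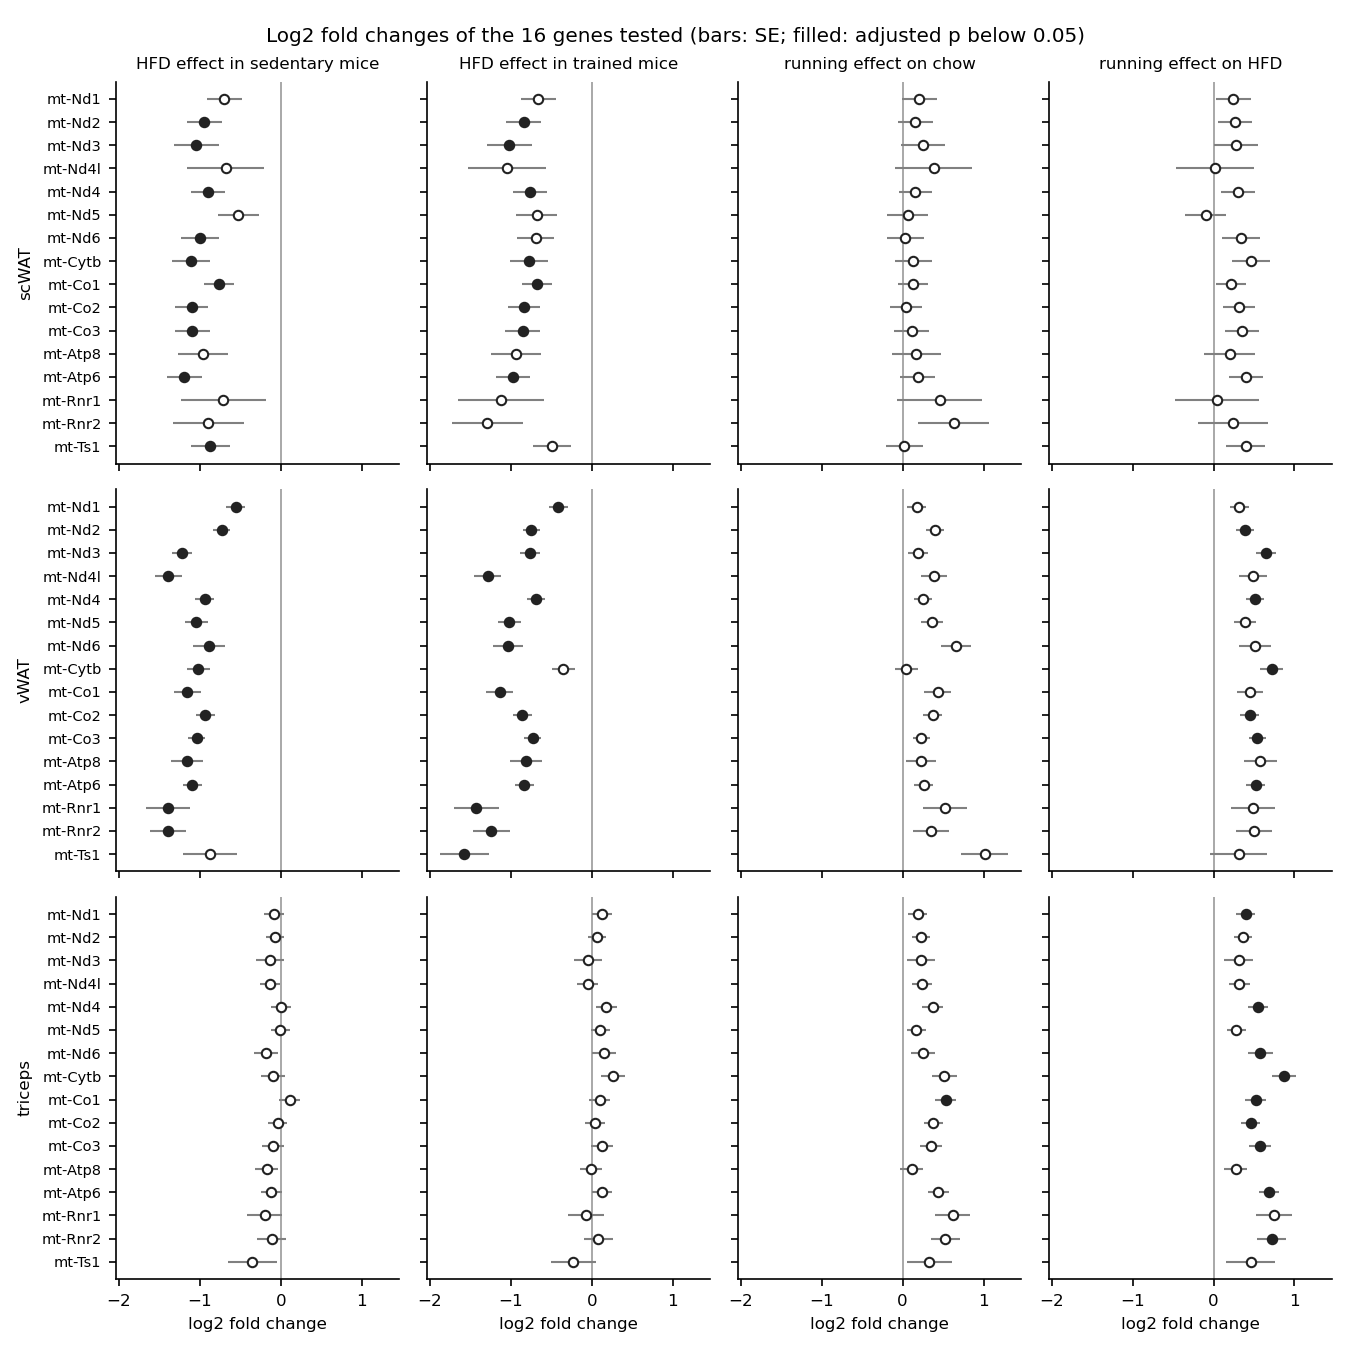
Log2 difference of each member that passed the filter, by tissue (HFD minus chow, or trained minus sedentary); bars are 1 SE and filled points were called at an adjusted p below 0.05. Diet differences lie below 0 in both fat depots and around 0 in triceps, and running differences on HFD lie above 0 in vWAT and triceps.

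Called members were thus lower for diet in fat and higher for running in muscle. This pairing was chosen with earlier results of these data known, so it is not independent evidence. Running on HFD also raised 7 protein genes in vWAT, so higher calls for running were not confined to muscle. Running left no member called in scWAT, and diet left none called in triceps. Diet was not tested against running. A fit of all 60 libraries with each animal as a block tested whether the same effect differed between tissues. There 17 members were tested, mt-Te being the addition. The diet difference in sedentary mice was lower in scWAT than in triceps for 8 protein genes (0.576% of all genes called lower) and lower in vWAT than in triceps for 7 (0.224%). The 6 genes mt-Atp6, mt-Co1, mt-Co2, mt-Co3, mt-Nd3 and mt-Nd4 were in both lists, which share the triceps libraries. In size, mt-Co2 differed most between scWAT and triceps (-1.10, adjusted p = 0.00369) and mt-Co1 between vWAT and triceps (-1.24, SE 0.24, 0.00151). These counts depended on single libraries: 1 to 10 members were called between scWAT and triceps and 1 to 9 between vWAT and triceps over the fits that left out 1 library each. The count between scWAT and triceps dropped to 1 without triceps HFD sedentary replicate 5, to 2 without scWAT HFD sedentary replicate 5, to 4 without scWAT HFD sedentary replicate 2 or chow sedentary replicate 4, and to 5 without scWAT chow sedentary replicate 5. The count between vWAT and triceps was 1 to 4 without vWAT chow sedentary replicate 1, 2, 3 or 5, vWAT HFD sedentary replicate 1, 3, 4 or 5, any triceps chow sedentary library, or triceps HFD sedentary replicate 4 or 5.

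No member's diet difference was called between vWAT and scWAT, against 1.64% of all genes in either direction, and 0 had an unadjusted p below 0.05. Likewise no running difference was called between triceps and either fat depot: on chow 0.0235% of all genes were called against scWAT and 0% against vWAT, and on HFD 0.400% and 0.306%. In each of these 4 comparisons 0 members had an unadjusted p below 0.05; for mt-Co3 on HFD, triceps minus vWAT was 0.00 (SE 0.24). DESeq2 was not run on the tissue differences. The running effect was thus not shown to differ between muscle and fat.

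The 2 rRNAs are the RNA of the mitochondrial ribosome's small (mt-Rnr1) and large (mt-Rnr2) subunits, and in vWAT both were called lower on HFD. The method primes on poly(A), so rRNA counts also depend on how these RNAs were primed, which was not tested. mt-Rnr2 stood at 36827, 35207, 34786, 30342 and 63707 CPM in chow sedentary and 15936, 24680, 19096, 16975 and 11202 CPM in HFD sedentary vWAT, with no overlap (-1.39, SE 0.23, adjusted p = 0.000607). In trained vWAT it was 32049, 53287, 48665, 61582 and 54193 CPM on chow and 22518, 24921, 20139, 19773 and 31951 CPM on HFD, where the lowest chow library lay just above the highest HFD one (-1.24, adjusted p = 0.00338). mt-Rnr1 fell by 1.39 (0.00385) and 1.43 (0.00729) in the same contrasts. Per protein-gene count, rRNA counts overlapped between the diets, with ratios of HFD to chow means of 0.729 in sedentary and 0.639 in trained vWAT, so the rRNAs were not shown to differ from the protein genes. In triceps running on HFD raised mt-Rnr2 from 45686, 34123, 45352, 59069 and 44829 CPM to 69474, 83923, 74912, 47687 and 52822 CPM, with overlap (0.72, SE 0.18, adjusted p = 0.0155). That call was lost without HFD sedentary replicate 1 (adjusted p = 0.0557) or HFD trained replicate 2 (0.0591) or 3 (0.0634), and mt-Rnr1 was at 0.75 (0.0555). On chow the 2 triceps groups were at 51626, 46667, 51507, 41419 and 45396 CPM and 53338, 55453, 80264, 61044 and 58512 CPM; every running library was above every sedentary one, without a call (0.52, adjusted p = 0.186).

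In scWAT the rRNAs split by block of library codes more than by diet. mt-Rnr2 there was 20053, 21722, 20180, 41601 and 43890 CPM in chow sedentary and 27025, 28137, 54788, 51841 and 44324 CPM in chow trained libraries. On HFD it was 8270, 6266, 26623, 29414 and 17425 CPM in sedentary and 11843, 12134, 28529, 32398 and 18904 CPM in trained libraries. Within each group the libraries of the block of 9 were the lower ones. Per protein-gene count, rRNA counts were 0.121 to 0.251 in the block of 9 and 0.339 to 0.572 in the block of 11, with all 4 groups in both blocks. The protein-gene share had no such gap, at 7.43 to 19.0% in the block of 9 and 6.57 to 15.5% in the block of 11.

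Without the block in the fit neither rRNA was called for diet in scWAT, mt-Rnr2 being at -0.89 (SE 0.44, adjusted p = 0.248) in sedentary and -1.29 (SE 0.44, 0.0853) in trained mice. With the block of codes as a factor the spread shrank and both were called: mt-Rnr2 at -1.26 (SE 0.22, adjusted p = 0.000778) and -1.32 (0.000525), and mt-Rnr1 at -1.17 (0.0256) and -1.22 (0.0215). Within the blocks the sedentary difference in mt-Rnr2 was -1.72 (adjusted p = 0.0693) in the block of 9 and -0.93 (0.0923) in the block of 11. The ratio of rRNA to protein-gene counts was less divided in triceps, at 0.292 to 0.340 in the 5 chow libraries, 0.249 to 0.378 in the block of 12 and 0.224 to 0.251 in the 3 HFD libraries. In vWAT the 3 blocks overlapped at 0.456 to 0.789, 0.384 to 0.946 and 0.342 to 0.664.

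**Figure D3:**
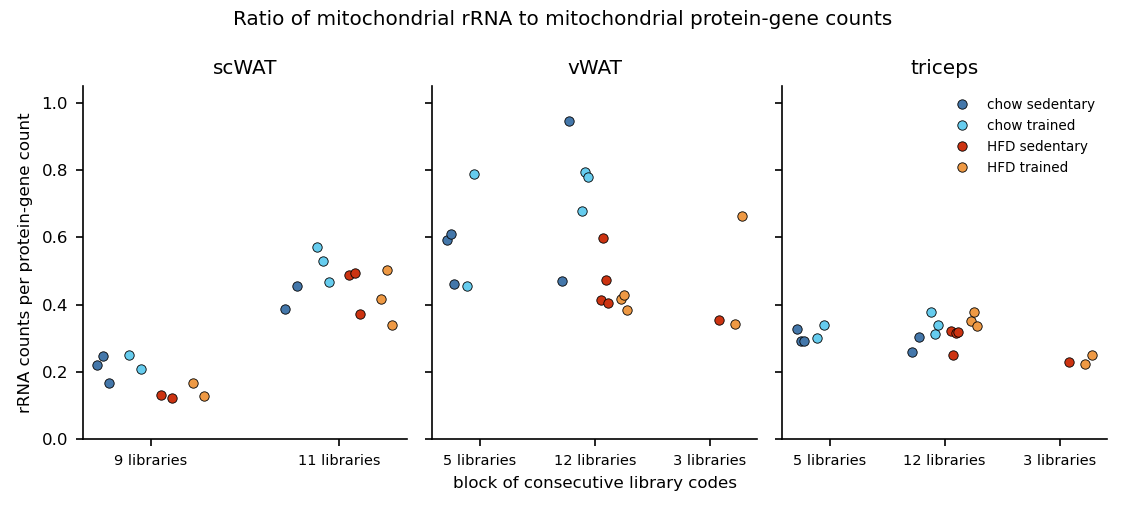
Counts of the 2 rRNA genes per count of the 13 protein genes in each library, by block of consecutive library codes and tissue. Block boundaries were set here in steps of 12 codes, and points are libraries coloured by group. In scWAT the block of 9 (0.121 to 0.251) and the block of 11 (0.339 to 0.572) do not overlap, while each holds all 4 groups.

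The tRNA genes were barely sampled. All 22 together had 1818 counts over the 60 libraries, 10 to 61 per library, and 19 of them had fewer than 150 counts each; only mt-Ts1 was seen in every library. mt-Ts1, a serine tRNA, had 873 counts, mt-Te (glutamate) 264, mt-Tt (threonine) 156 and mt-Ti (isoleucine) 116. The 2 most counted both lie on the strand opposite most other genes and are shown in full, as the sequences these few reads were assigned to.
mt-Ts1, chrM:6870-6938, minus strand: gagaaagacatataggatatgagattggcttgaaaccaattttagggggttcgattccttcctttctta
mt-Te, chrM:14071-14139, minus strand: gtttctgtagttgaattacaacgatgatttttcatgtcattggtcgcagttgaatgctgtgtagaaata
mt-Ts1 lies directly after mt-Co1, whose mature RNA is known to run on through the stretch antisense to mt-Ts1. Its level was 30.9, 29.7, 33.3, 24.5 and 46.9 CPM in chow sedentary and 17.6, 17.0, 25.3, 21.0 and 21.8 CPM in HFD sedentary scWAT, with the lowest chow library inside the HFD range (-0.87, SE 0.24, adjusted p = 0.0274). That call was lost without HFD sedentary replicate 1 (adjusted p = 0.0750), 2 (0.0770) or 5 (0.0792) or chow sedentary replicate 5 (0.0884). In trained vWAT it was 25.9, 32.4, 51.9, 51.1 and 37.5 CPM on chow against 9.10, 13.3, 15.5, 11.7 and 25.5 CPM on HFD (-1.57, SE 0.30, adjusted p = 0.00154). No group overlap occurred there, although the highest HFD and lowest chow libraries were close. These levels rest on 3 to 31 counts per library.

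Adding the counts of the nuclear copies to their members kept the diet calls of mt-Co1 in fat and changed its calls for running. In sedentary scWAT the diet difference of mt-Co1 with Gm29216 was -0.94 (SE 0.18, adjusted p = 0.00177), and in sedentary vWAT -1.02 (6.85e-06). In triceps the running difference became 0.37 on HFD (adjusted p = 0.207), where mt-Co1 alone was called at 0.52. Running on HFD in vWAT gained a call, at 0.54 (0.0189). Gm29216 by itself was at -0.95 (0.00173) and -1.004 (8.6e-06) for diet in sedentary scWAT and vWAT and at 0.32 (0.572) for running on HFD in triceps. mt-Nd3 kept its calls with Gm28438 added, at -0.96 (0.0412) in scWAT and -1.21 (1.17e-07) in vWAT of sedentary mice.

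In each contrast the parts of most of the 13 protein genes in their summed counts overlapped between the groups, and few did not. mt-Nd1, the core complex I subunit that joins the membrane arm to the quinone site, held a larger part of the protein-gene counts on HFD in fat. In vWAT its part was 11.4, 10.5, 11.7, 10.4 and 8.79% in chow sedentary and 13.7, 11.4, 13.3, 15.7 and 16.4% in HFD sedentary libraries. Only the lowest HFD library entered the chow range. In trained vWAT it was 9.28 to 11.3% on chow and 11.6 to 12.7% on HFD, without overlap. In sedentary scWAT its mean went from 9.87% (SD 0.94) to 12.5% (SD 1.71), with overlap (8.97 to 11.2% on chow, 10.4 to 14.5% on HFD). In triceps the same part was lower after running: 16.02 to 17.7% in chow sedentary against 14.5 to 15.3% in chow trained libraries, without overlap, and 16.2 to 18.0% against 13.7 to 16.2% on HFD, with overlap. mt-Cytb's part in triceps on HFD was 18.6, 21.3, 17.6, 21.0 and 20.8% in sedentary and 23.9, 26.8, 23.4, 24.5 and 21.9% in trained libraries, all trained above all sedentary. On chow its part was 17.4 to 21.9% in sedentary and 20.7 to 23.1% in trained triceps, with overlap. In vWAT the part of mt-Atp6 was lower on HFD without overlap. Its means were 16.97% on chow and 15.42% on HFD in sedentary mice, and 17.57% and 15.26% in trained mice. No overlap also occurred between diets for mt-Nd1 in trained scWAT, mt-Co1 in trained vWAT and mt-Nd4 in sedentary triceps. The same held for mt-Atp6 between running groups in triceps on chow. Counts of Gm29216 are not in any of these parts. These parts sum to 100%, so a larger part of 1 gene goes with a smaller part of others; they are descriptions and were not tested.

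**Figure D4:**
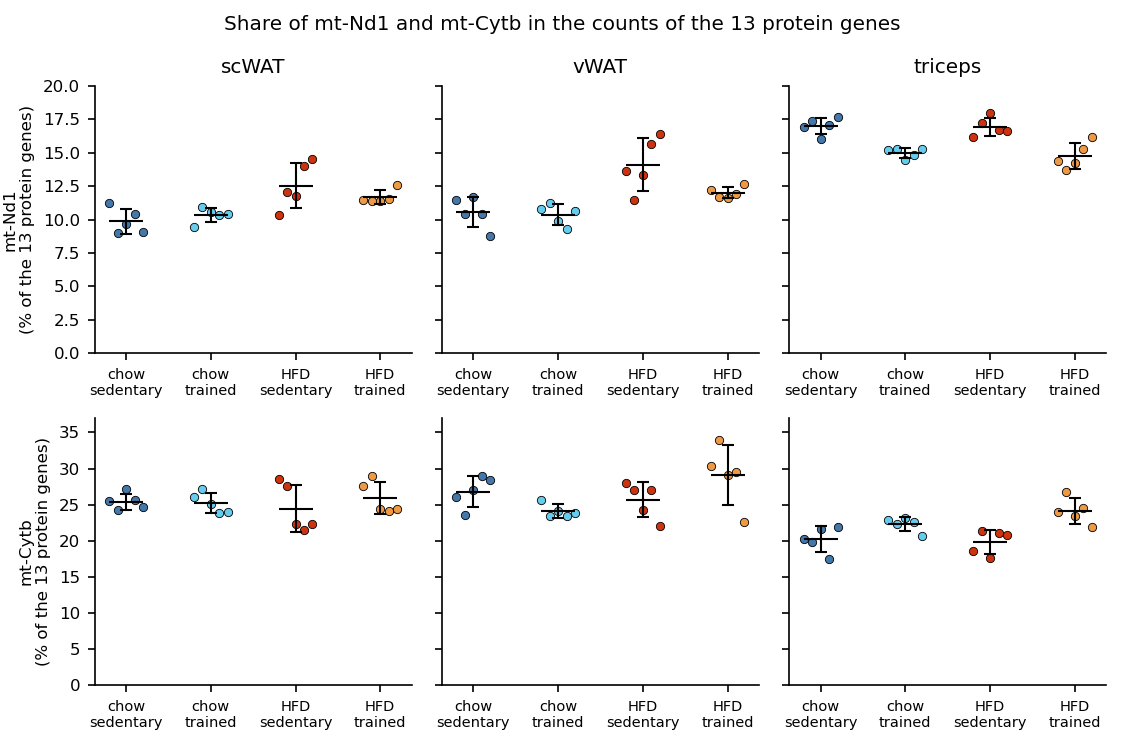
Part (%) of the 13 protein genes' counts that came from mt-Nd1 (top) and mt-Cytb (bottom) in each library, by tissue and group; points are libraries, bars group means and whiskers 1 SD (n = 5). In triceps the mean mt-Nd1 part is lower and the mean mt-Cytb part higher in running mice, and in vWAT the mean mt-Nd1 part is higher on HFD. Groups overlap for mt-Cytb in triceps on chow, for mt-Nd1 in triceps on HFD and for mt-Nd1 in sedentary vWAT.

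Levels of different genes are given per kilobase, as means over the 20 libraries of a tissue, although counts taken near 3′ ends do not grow with gene length, so this scale raises short genes. In triceps mt-Co3 stood at 65750 CPM per kilobase, mt-Atp6 at 52965, mt-Cytb at 47869 and mt-Nd1 at 41284. In scWAT mt-Atp6 stood at 32650, mt-Co3 at 31715 and mt-Cytb at 26862, and in vWAT the 3 stood at 20276, 19661 and 19284. Without the division by length the order differs: mt-Cytb had the highest mean CPM of the protein genes in all 3 tissues (54763 in triceps, 30731 in scWAT and 22060 in vWAT). mt-Nd6, the only protein gene on the opposite strand, stood at 305 CPM per kilobase in triceps, 195 in scWAT and 184 in vWAT. Its mean CPM in vWAT, 95.3, was close to that of mt-Atp8, 94.6. Reads of mt-Nd6 could not be separated from RNA antisense to it, so these values need not show the level of its mRNA. The order was not tested.

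Nuclear genes for the same complexes had medians of the same sign in these contrasts, nearer to 0 for diet in fat. These lists were chosen with earlier results of these data known, so their direction is not independent evidence. Of 78 listed subunits of complexes I to IV and ATP synthase 77 were tested in each tissue. In sedentary vWAT 56 were called lower on HFD (4.15% of all genes were) and none higher, with a median of -0.50 where the mitochondrial protein genes had -1.04. By complex these were 26 of 36 for complex I, 2 of 4 for complex II, 7 of 9 for complex III, 11 of 13 for complex IV and 10 of 15 for ATP synthase. Examples are Cox4i1 of complex IV (-0.68, adjusted p = 0.000112), Ndufb9 of complex I (-0.75, 0.000133), Atp5j2 of ATP synthase (-0.66, 0.000413) and Sdhb of complex II (-0.80, 0.00141).

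In sedentary scWAT 20 of the 77 were called lower (median -0.48, against 2.80% of all genes): 9 of complex I, 5 of complex III, 6 of complex IV, and none of complex II or ATP synthase. Ndufa1 (-0.87, 0.00167), Uqcr10 of complex III (-0.78, 0.00710) and Cox6a1 of complex IV (-0.91, 0.00869) were among them. In trained mice 9 were lower in vWAT (median -0.31, against 1.42% of all genes) and 3 in scWAT (-0.36, against 2.01%). Running on HFD raised 3 of the 77 in vWAT (median 0.25, against 1.22%) and 1 in scWAT (0.22, against 0.707%). The counts of 3 and 1 in scWAT are near those shares of all genes.

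In triceps running on HFD raised 33 of the 77 (median 0.38, against 3.49% of all genes), including all 4 of complex II, which has no mitochondrial gene, 9 of complex I, 4 of complex III, 8 of complex IV and 8 of ATP synthase. Cyc1, the cytochrome c1 of complex III, rose by 0.76 (0.000919), Sdhb by 0.75 (0.00125), Atp5g1 by 0.63 (0.000919) and Cox7a1 by 0.73 (0.00841). On chow 5 rose (median 0.32, against 0.431%): Atp5g1, Atp5g3, Ndufb8, Cyc1 and Cox4i1. The median of the mitochondrial protein genes there was 0.25.

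The machinery that makes and handles mitochondrial RNA was mostly not called. Of 15 listed genes of mitochondrial transcription and replication, 8 were tested in scWAT and 6 each in vWAT and triceps, and only Tfb2m, a transcription factor for mitochondrial DNA, was called (-1.02, adjusted p = 0.00657, scWAT of trained mice on HFD). Of 21 genes of RNA processing and decay, 13, 12 and 11 were tested, and only Hsd17b10, a subunit of the enzyme that cuts tRNA 5′ ends, was called (-0.72, 0.00205, vWAT of sedentary mice on HFD). Of 10 listed biogenesis regulators, 4 were tested in each fat depot and 2 in triceps, and no contrast gave any of them (Gabpa, Nrf1, Ppargc1a and Yy1) an unadjusted p below 0.05. Of 83 mitochondrial ribosomal protein genes, nuclear partners of the 2 rRNAs, 6 of 76 tested were lower on HFD in sedentary vWAT, among them Mrps15 (-1.03, 0.00207), and 2 of 76 in sedentary scWAT. Over all genes 4.15% and 2.80% were lower in these contrasts, so the count in scWAT is no more than that share.

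**Figure D5:**
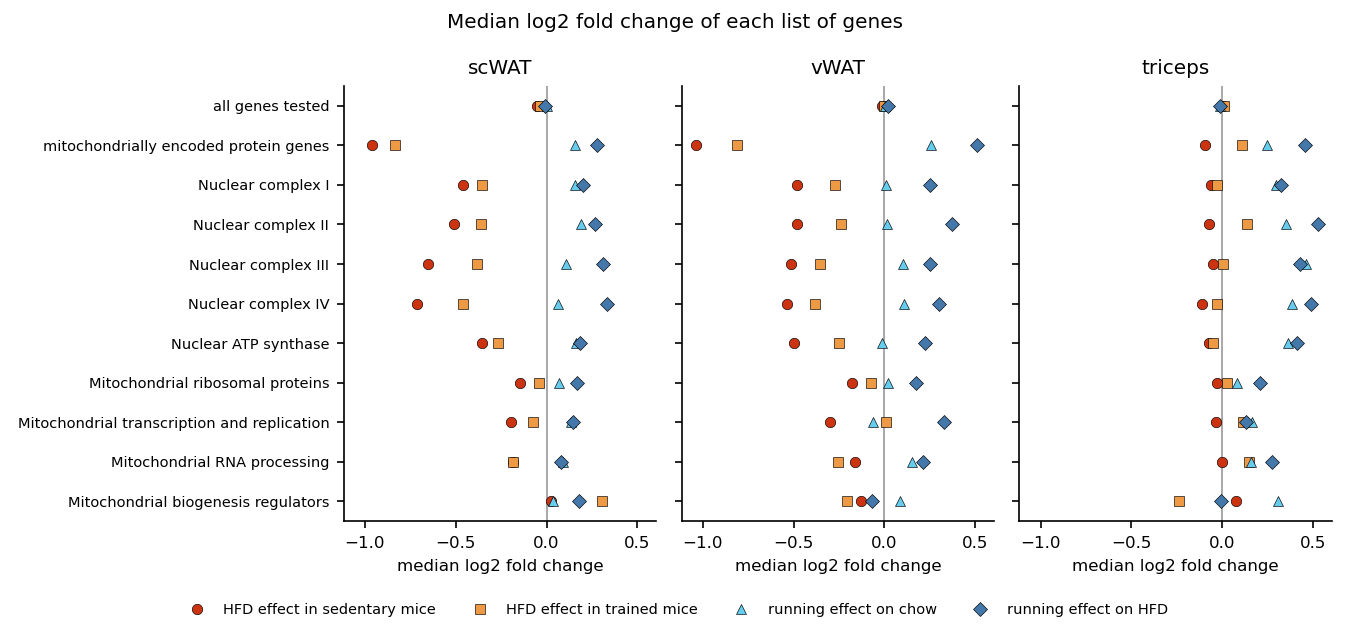
Median log2 difference of all genes tested, the mitochondrial protein genes and 9 lists of nuclear genes (horizontal axis), by list and tissue; each marker is 1 contrast. For diet in both fat depots the mitochondrial protein genes lie furthest from 0, at -1.04 in sedentary vWAT.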

How the data were processed

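The 3′ digital gene expression libraries were quantified by the authors with Salmon 0.14.2 on mm10, per the submitters' processing notes. The deposited estimated counts per gene were rounded to whole numbers for all tests. The deposited log2 CPM columns, per the file headers, were used only to check the counts. Handling of strand and molecular identifiers is not given in the sources used here. Genes were filtered by filterByExpr, scaled by TMM and fitted per tissue with edgeR 4.0.16 (R 4.3.3, limma 3.58.1) over all 4 groups, and tissue differences in 1 fit with the animal as block. SEs were derived from the F statistic. DESeq2 1.42.0 was an alternative, beside other scalings, no filter, added copies, blocks of library codes and left-out libraries. The scripts were tested on simulated data. Nuclear copies were found with BLAST over GENCODE vM21 transcripts. All 13 protein genes, both rRNA genes and any tRNA gene passing the filter were named whatever the test gave; values in every library were given for mt-Co3, mt-Rnr2 and the called member with the lowest adjusted p of a contrast. Members and lists were chosen with earlier results of these data known. Replicates were separate animals.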

Additional observations from a re-analysis of the deposited data

Results flagged for a closer look

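In 228 group values of 5 libraries each, 17 had a lowest or highest library far from the other 4 (Dixon's criterion), where chance flags about 1 in 20. For the rRNAs, vWAT chow trained replicate 1 was low in mt-Rnr1 (12997 CPM, next 26749) and in rRNA share (4.505% of counts, next 7.79%). In vWAT chow sedentary, replicate 5 was high in mt-Rnr2 (63707 CPM, next 36827) and in rRNA share (9.17%, next 5.54%), and also in mt-Nd6 (128 CPM, next 87.9). In vWAT HFD trained, replicate 5 was high in rRNA share (4.75%, next 3.36%) and in rRNA per protein-gene count (0.664, next 0.428). In triceps chow trained, replicate 3 was high in mt-Rnr2 (80264 CPM, next 61044) and in rRNA share (11.4%, next 8.55%). The protein-gene share of vWAT HFD sedentary replicate 5 was low (4.53%, next 5.60%).

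Of single protein genes, mt-Atp6 was high in scWAT chow sedentary replicate 3 (36646 CPM, next 26194). mt-Nd1 was high in scWAT HFD sedentary replicate 4 (13682 CPM, next 9835) and in scWAT chow trained replicate 2 (20764 CPM, next 15206). mt-Nd6 was high in scWAT HFD sedentary replicate 3 (122 CPM, next 64.5) and in triceps HFD sedentary replicate 4 (171 CPM, next 138). The latter library was also high in mt-Nd3 (3878 CPM, next 3131). mt-Nd4 was high in triceps HFD trained replicate 2 (31840 CPM, next 29646).

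The diet difference in sedentary mice differed between tissues by the edgeR interaction test for 15 values. For scWAT minus triceps these were mt-Atp6 (-1.07, adjusted p = 0.00851), mt-Co1 (-0.91, 0.0253), mt-Co2 (-1.10, 0.00369), mt-Co3 (-1.01, 0.0124), mt-Cytb (-1.02, 0.0181), mt-Nd2 (-0.91, 0.0192), mt-Nd3 (-1.04, 0.0273) and mt-Nd4 (-0.92, 0.0192). For vWAT minus triceps they were mt-Atp6 (-0.97, 0.0338), mt-Co1 (-1.24, 0.00151), mt-Co2 (-0.89, 0.0438), mt-Co3 (-0.92, 0.0434), mt-Nd3 (-1.05, 0.0412), mt-Nd4 (-0.92, 0.0338) and mt-Nd5 (-1.01, 0.0407).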

How the results depend on the processing

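Of 80 called member values, 46 kept call and sign in every fit that left out 1 library, 33 in every fit run, and 0 reversed. Against total counts, TMM moved the median of all genes by -0.19 and -0.27 for diet in scWAT (sedentary, trained), by -0.20 and -0.17 in vWAT, and by 0.12 and 0.18 for running in triceps (chow, HFD). The following are counts of members called. For diet in sedentary scWAT (10), the replicate block gave 16, the block of codes as a factor 16, the block of 9 alone 0, the block of 11 alone 4, and leaving out the lymph node libraries 6. In trained scWAT (8) the same settings gave 14, 14, 0, 4 and 3, total counts 4, a muscle marker covariate 3, and leaving out libraries over 1% muscle markers 0. Replicate numbers rise with the library codes within each group, so a replicate block and the blocks of codes are not independent. Same-numbered deviations correlated by 0.149, 0.0426 and 0.00903 on average in scWAT, vWAT and triceps. Those with other numbers correlated by -0.0370, -0.0108 and -0.00226. For running in vWAT, DESeq2 gave 1 on chow, the block of 12 alone gave 3 on HFD (7) and leaving out the intestinal-read libraries 1; the interaction without a filter gave 1. For running on chow in triceps (1), total counts, added copies, the block factor and leaving out the intestinal-read libraries gave 0, DESeq2 5, no filter 3 and leaving out the brain-read libraries 2. The tissue difference between vWAT and triceps (7) gave 4 with no replicate block and 2 with total counts. The ratio of protein-gene shares for diet in trained vWAT (0.728) was 0.661 per nuclear-gene count. Leaving out single libraries gave 6 to 12 and 1 to 10 for diet in scWAT (sedentary, trained), 15 to 16 and 13 to 15 in vWAT, 0 to 1 and 5 to 8 for running in vWAT (chow, HFD), 0 to 1 and 4 to 12 in triceps, and 1 to 10 and 1 to 9 for scWAT and vWAT against triceps. Without vWAT chow sedentary replicate 5 or chow trained replicate 1, 1 member was called for running on chow. Where settings disagree the cause was not tested, beyond the fewer libraries in the within-block fits. The tRNA genes had 10 to 61 counts per library.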
